A study of Mus musculus with 8 samples.

Results

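T cells recognise antigen with a receptor that signals through the CD3 chains, helped by a CD4 or CD8 co-receptor that brings the kinase LCK to the complex. The 10 genes described here cover that machinery and its making: the receptor chains Cd3d, Cd3e and Cd3g, the co-receptor genes Cd4, Cd8a and Cd8b1, the kinase Lck, the chromatin organiser Satb1, and the recombination genes Rag1 and Dntt. They were chosen by symbol, and 13 probes carried them among the 39429 probes and 20659 named genes of the array. All 10 genes were on the array, 9 of them were bright enough to be tested, and none (0) differed between the genotypes at an adjusted p under 0.05.

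The arrays came from myocardium, the muscle of the heart, of male mice that had received no treatment. The NPRA-/- arrays (3) and the NPRA+/+ arrays (5) differ in NPRA, the guanylyl cyclase receptor for atrial and B-type natriuretic peptides, which is encoded by Npr1. The labels trace the knockout to an NprAflox/flox conditional mouse and repeat that description for both genotypes, the series title limits the deficiency to the heart, and neither names the Cre driver, an age or the strain. Total RNA was labelled with Cy3 and hybridised to 1 Agilent mouse expression array per sample. The series text speaks of an m6A array, yet the record is typed as expression profiling and the signals were read as transcript levels.

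A T cell is made in the thymus, where progenitors rearrange their receptor genes with the recombinase RAG1 and RAG2, and terminal transferase, the product of Dntt, adds bases at the joins. Immature thymocytes carry both CD4 and CD8, and mature cells that leave the thymus keep one of these co-receptors and have switched off Rag1 and Dntt. Heart muscle cells are not known to make CD3 chains, whereas a heart also holds lymphocytes of the blood and of the tissue. In bulk RNA, fewer cells of a type and less RNA per cell cannot be told apart.

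Promoter sequence of 3 of these genes is shown because they are known to be read at different stages of a T cell's life. Lck has a proximal promoter used in thymocytes and a distal one used also in mature T cells, Cd3e is read through the whole life of a T cell, and Rag1 is read while receptor genes are being rearranged. The 250 bases before each start, from RefSeq on GRCm38.p6 and all on the minus strand, run 5' to 3' below. They lie at chr4:129558373-129558622 for the proximal Lck start, chr4:129573642-129573891 for the distal Lck start, chr9:45009612-45009861 for Cd3e and chr2:101649533-101649782 for Rag1. Capitals mark, on either strand, the letters AGGAAG of ETS factors, TGTGGT of RUNX factors and CAGNTG, the E-box bound by E proteins, 3 families that act in T cell development.
Lck proximal: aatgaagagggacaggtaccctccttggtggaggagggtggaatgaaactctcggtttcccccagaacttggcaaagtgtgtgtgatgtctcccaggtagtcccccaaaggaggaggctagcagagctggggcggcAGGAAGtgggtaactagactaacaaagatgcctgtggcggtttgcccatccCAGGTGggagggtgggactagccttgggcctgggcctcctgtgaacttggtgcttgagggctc
Lck distal: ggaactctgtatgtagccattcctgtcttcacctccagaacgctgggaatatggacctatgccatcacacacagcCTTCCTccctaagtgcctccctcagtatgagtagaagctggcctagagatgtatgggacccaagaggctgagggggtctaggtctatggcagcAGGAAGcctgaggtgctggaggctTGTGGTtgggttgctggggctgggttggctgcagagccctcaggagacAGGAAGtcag
Cd3e: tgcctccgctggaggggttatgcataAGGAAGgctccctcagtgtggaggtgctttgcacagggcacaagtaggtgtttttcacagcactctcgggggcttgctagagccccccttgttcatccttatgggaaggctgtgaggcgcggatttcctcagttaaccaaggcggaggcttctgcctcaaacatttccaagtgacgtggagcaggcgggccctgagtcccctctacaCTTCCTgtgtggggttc
Rag1: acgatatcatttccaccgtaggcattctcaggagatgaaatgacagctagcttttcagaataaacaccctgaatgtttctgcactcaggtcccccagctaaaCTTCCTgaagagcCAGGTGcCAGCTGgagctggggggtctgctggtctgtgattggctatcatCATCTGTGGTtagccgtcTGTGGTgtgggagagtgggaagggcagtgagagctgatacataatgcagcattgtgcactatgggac
The Rag1 window held 1 ETS, 2 RUNX and 3 E-box matches, with a RUNX and an E-box match sharing letters. The distal Lck window held 3 ETS matches, 1 RUNX match and 0 E-box matches, the proximal Lck window 1 ETS, 0 RUNX and 1 E-box match, and the Cd3e window 2 ETS matches with 0 of the others. Such letters are common: of 32851 RefSeq promoter windows of the same length, 29.5% held the ETS letters, 14% the RUNX letters and 44.8% the E-box letters. The windows of Cd8a and Dntt and 4 of the 5 windows of Satb1 held 0 matches of any of these motifs. A match is a description of the letters and no evidence of binding, and it says nothing of stage. Lck was measured by 1 probe, whose place on the transcript was not available here, so its signal was not assigned to either promoter.

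Between 79.5% and 92.6% of all probes were well above background on an array, by the flag of the scanner software. A level below is the log2 of the processed signal minus that of the array's 75th percentile, so that 0 is the 75th percentile and each step of 1 is a doubling. Scan day, taken from the file headers, ran alongside the design: replicates 2 and 3 of both genotypes were scanned on day 1, NPRA-/- replicate 1 on day 3, NPRA+/+ replicate 1 on day 4, and NPRA+/+ replicates 4 and 5 on day 2. Arrays with the same scan time in those headers were taken to share a slide. No slide so defined (0 of 6) held both genotypes. The first principal component, with 47.3% of the variance, set NPRA-/- replicate 1 and NPRA+/+ replicate 1 apart from the other 6 arrays. Heart muscle identity was clear on all arrays, since all 10 cardiomyocyte genes looked at were well above background on each of the 8. Npr1 itself averaged -5.85 ± 0.50 in NPRA-/- hearts (SD, n = 3) and -5.88 ± 0.66 in NPRA+/+ hearts (SD, n = 5), close to background. Where its probe lies on the transcript was not known here, so Npr1 does not check the labels.

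Cd3d encodes the delta chain of CD3, which pairs with epsilon. Its level was -4.99, -5.22 and -5.01 in NPRA-/- replicates 1 to 3, against -5.98, -5.50, -5.27, -5.97 and -5.13 in NPRA+/+ replicates 1 to 5. The NPRA-/- values lay within or just above the NPRA+/+ range, and the genotypes overlapped. The probe passed the background flag on each NPRA-/- array (3 of 3) and on 4 of 5 NPRA+/+ arrays, the exception being replicate 1.

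Cd3e, the epsilon chain present in every CD3 pair, was measured well above background on all 8 arrays. Its level was -1.15, -3.28 and -3.20 in NPRA-/- hearts, against -1.31, -3.79, -4.00, -3.49 and -3.90 in NPRA+/+ hearts. Replicate 1 of each genotype stood well over the remaining arrays, and the spread inside each genotype (SD 1.21 in NPRA-/- and 1.13 in NPRA+/+) was larger than the distance between their means.

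Cd3g, the gamma chain, was not well above background on any array (0 of 8). Its probe read -6.71, -7.60 and -6.34 in NPRA-/- hearts and -7.01, -7.71, -8.63, -5.63 and -8.23 in NPRA+/+ hearts. These values have no order that could be trusted, and no fold is given.

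Cd4 encodes the co-receptor of helper T cells, and some dendritic cells carry it as well. Its brighter probe read 0.36, -1.29 and -1.57 in NPRA-/- hearts, against 1.25, -1.50, -2.08, -1.38 and -1.85 in NPRA+/+ hearts. Its other probe read -3.29, -4.08 and -4.40 in NPRA-/- hearts, against -2.76, -4.62, -4.85, -4.51 and -4.64 in NPRA+/+ hearts. On both probes replicate 1 of each genotype was the highest array of its genotype, and the genotypes overlapped.

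Cd8a encodes the alpha chain of CD8, found on cytotoxic T cells, thymocytes and some dendritic cells. One probe read -4.09, -3.97 and -3.81 in NPRA-/- hearts, against -4.42, -4.63, -4.56, -4.27 and -4.77 in NPRA+/+ hearts. The other, made to another transcript of the gene, read -4.30, -4.35 and -4.77 in NPRA-/- hearts, against -5.34, -5.33, -5.34, -5.54 and -5.41 in NPRA+/+ hearts. On both probes each NPRA-/- array stood over each NPRA+/+ array.

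Cd8b1 encodes the beta chain, which pairs with alpha on thymocytes and cytotoxic T cells. Its level was -3.44, -1.99 and -2.03 in NPRA-/- hearts, against -3.23, -2.51, -2.62, -2.72 and -3.00 in NPRA+/+ hearts. Here replicate 1 of each genotype was the lowest array of its genotype, opposite to Cd3e and Cd4.

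Lck, the kinase that phosphorylates the CD3 chains, read -1.91, -2.51 and -2.80 in NPRA-/- hearts, against -2.07, -3.09, -3.20, -3.19 and -3.28 in NPRA+/+ hearts. Replicate 1 of each genotype was again the highest array of its genotype. The remaining NPRA-/- arrays stood over the remaining NPRA+/+ arrays.

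Satb1 organises chromatin and is abundant in thymocytes, but it is also made outside the lymphoid lineage. Its level was 0.34, -0.01 and 0.24 in NPRA-/- hearts, against 0.08, 0.45, 0.42, 0.50 and 0.41 in NPRA+/+ hearts. NPRA+/+ replicates 2 to 5 lay over every NPRA-/- array, and NPRA+/+ replicate 1 lay among the NPRA-/- arrays.

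Rag1, the recombinase subunit that cuts receptor genes, sat near the detection limit. Its brighter probe read -5.85, -4.85 and -4.93 in NPRA-/- hearts, against -6.54, -6.27, -6.29, -6.13 and -6.47 in NPRA+/+ hearts. It was well above background on NPRA-/- replicates 2 and 3 and on NPRA+/+ replicate 3, and the genotypes did not overlap. The other Rag1 probe did not show this: it read -7.88, -6.84 and -7.11 in NPRA-/- hearts and -7.84, -8.37, -6.86, -8.38 and -7.28 in NPRA+/+ hearts, was well above background on 1 array of each genotype, and was not tested.

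Dntt, the terminal transferase of immature lymphocytes, was well above background on all 8 arrays. Its level was -1.77, -1.60 and -1.70 in NPRA-/- hearts, against -1.67, -2.18, -2.29, -2.15 and -2.52 in NPRA+/+ hearts. Apart from NPRA+/+ replicate 1, which lay among the NPRA-/- arrays, all NPRA+/+ arrays were lower.

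**Figure D1:**
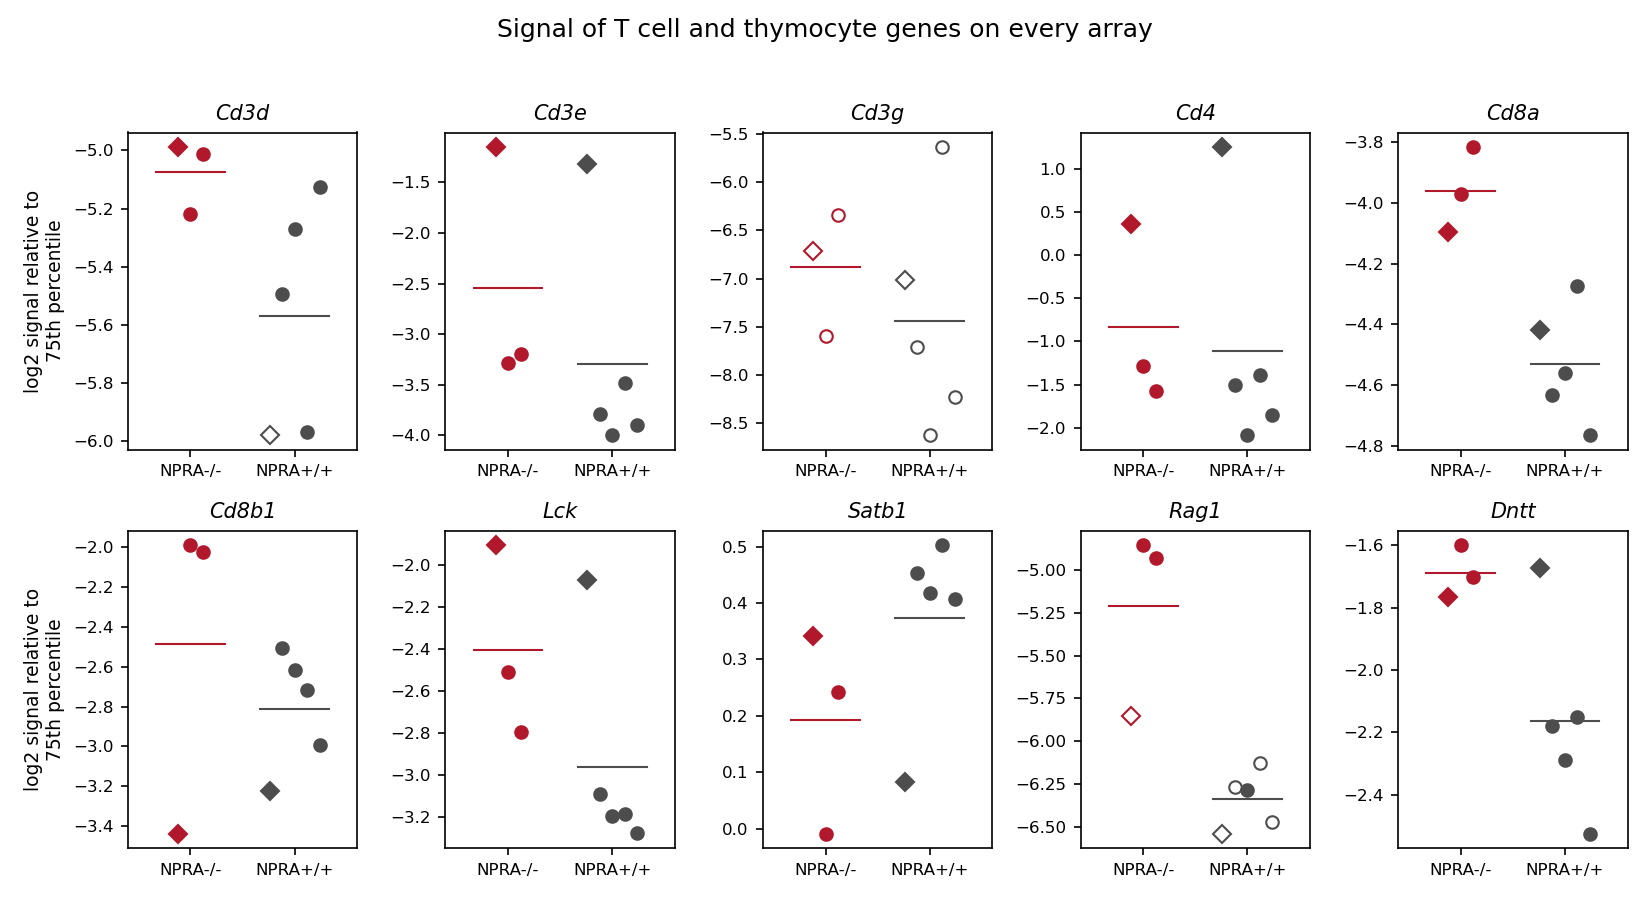
Each panel plots the log2 signal of 1 gene relative to the array's 75th percentile (y axis) for NPRA-/- (left, red) and NPRA+/+ (right, grey), with a line at the mean; diamonds are the arrays of scan days 3 and 4 (replicate 1 of each genotype) and open symbols are arrays on which the probe was not well above background. The diamonds stand apart upward for Cd3e, Cd4 and Lck and downward for Cd8b1, while Cd8a and Rag1 separate by genotype.

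The genotype comparison asked whether the hearts with and without NPRA differed in these transcripts. Over all probes tested, limma called 113 higher and 10 lower of 35329 at an adjusted p under 0.05, a share of 0.32% and 0.0283%. Among the 9 tested genes 0 were higher and 0 were lower at that threshold. At an unadjusted p under 0.05, Cd8a, Rag1 and Dntt (3 of 9) were higher and 0 lower, where 18.3% of all probes were higher. The calls over all probes did not survive a block by the repetition number of the labels (0 higher and 0 lower), and with the source name number as the block 1 was higher and 21 lower.

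Rag1 was read against a group mostly at background, since its probe passed the flag on 2 of 3 NPRA-/- and 1 of 5 NPRA+/+ arrays, so the size of its fold is uncertain. It averaged -5.21 ± 0.56 in NPRA-/- hearts (SD, n = 3) and -6.34 ± 0.17 in NPRA+/+ hearts (SD, n = 5), which gave a log2 fold change of 1.13 ± 0.24 (SE, limma fit; adjusted p = 0.0754). With each gene read by its brightest probe, it was the 1 gene of the 9 with an adjusted p under 0.1, a threshold that 4.33% of all probes met in the higher direction.

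Cd8a averaged -3.96 ± 0.14 in NPRA-/- hearts and -4.53 ± 0.19 in NPRA+/+ hearts (SD, n = 3 and 5), a log2 fold change of 0.57 ± 0.15 (limma, adjusted p = 0.103). Its other probe averaged -4.47 ± 0.26 in NPRA-/- hearts and -5.39 ± 0.09 in NPRA+/+ hearts, a log2 fold change of 0.92 ± 0.15 (limma, adjusted p = 0.0522). Cd8a and Rag1 were the genes (2 of 9) in which all NPRA-/- arrays stood over all NPRA+/+ arrays, as did 14.1% of all probes.

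Dntt averaged -1.69 ± 0.08 in NPRA-/- hearts and -2.16 ± 0.31 in NPRA+/+ hearts, a log2 fold change of 0.47 ± 0.19 (limma, adjusted p = 0.225). Cd3d averaged -5.07 ± 0.13 in NPRA-/- hearts and -5.57 ± 0.39 in NPRA+/+ hearts, with a log2 fold change of 0.50 ± 0.23 (limma, adjusted p = 0.281). For Lck the fitted log2 fold change was 0.56 ± 0.32 (limma, adjusted p = 0.377), and for Satb1, the only gene of the 9 on the negative side, it was -0.18 ± 0.15 (limma, adjusted p = 0.55).

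The widest errors belonged to the genes in which replicate 1 stood apart. Cd3e had a log2 fold change of 0.75 ± 0.73 (limma, adjusted p = 0.617), Cd4 of 0.28 ± 0.79 (limma, adjusted p = 0.884) and Cd8b1 of 0.33 ± 0.35 (limma, adjusted p = 0.654).

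The direction of these fits has to be read against the whole array. Of the 9 genes 8 had a positive fitted change, with a median of 0.50, but 75% of all probes did as well, with a median of 0.21. The shift was uneven over signal: the median change was 0.63 among the dimmest 7066 tested probes, where Cd3d, Rag1 and the other Cd8a probe lie, and 0.05 among the brightest 7066. Relative to the dimmest probes, Rag1 kept 0.50 and Cd3d came to -0.13. After quantile normalization, which gives all arrays the same distribution, 7 of the 9 were positive with a median of 0.15, where 49.7% of all probes were positive. Rag1 then had a log2 fold change of 0.53 ± 0.30, Dntt 0.28 ± 0.15, Cd8a 0.15 ± 0.16 (0.42 ± 0.16 on its other probe, limma, adjusted p = 0.561), Satb1 -0.19 ± 0.16 and Cd3d -0.09 ± 0.26, and no probe on the array passed the adjusted threshold in limma (0 of 35329, against 1421 positive and 1427 negative ones with an unadjusted p under 0.05).

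**Figure D2:**
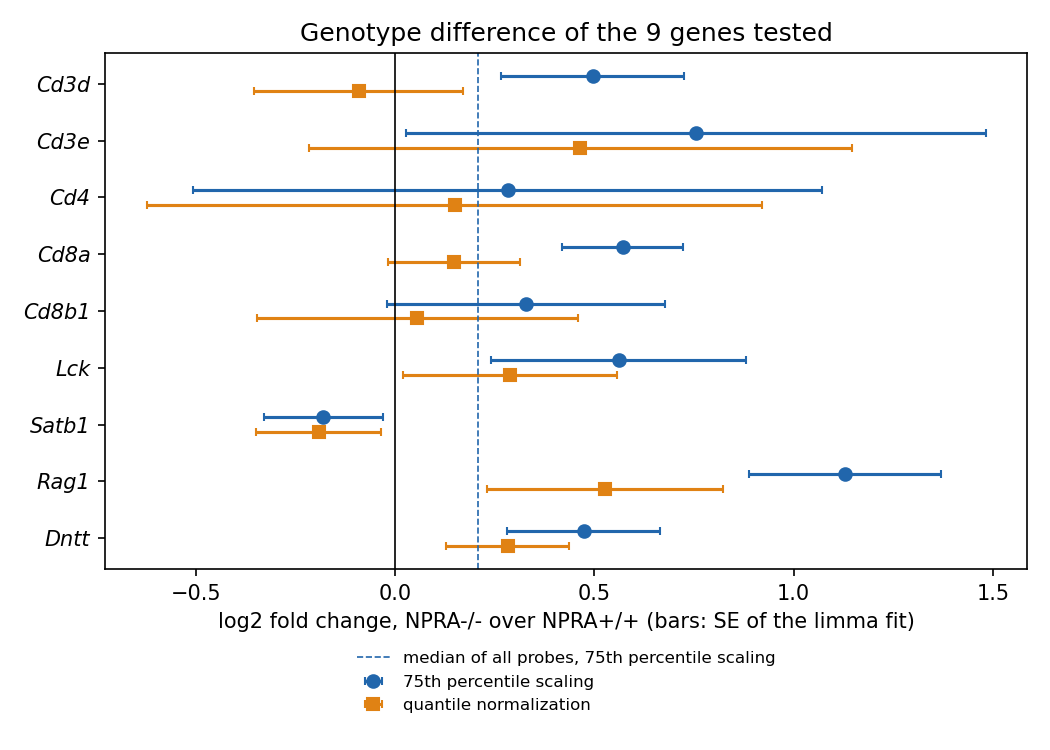
Fitted log2 fold change, NPRA-/- over NPRA+/+ (x axis), of the 9 tested genes (y axis), with the SE of the limma fit as bars, after scaling to the 75th percentile (blue circles) and after quantile normalization (orange squares); the dashed line is the median of all probes under the first scaling. Rag1 is at 1.13 under the first scaling and 0.53 under quantile normalization, Cd3d at 0.50 and -0.09, and Satb1 at -0.18 and -0.19.

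The arrays of scan days 3 and 4, which are replicate 1 of NPRA-/- and replicate 1 of NPRA+/+, split the genes in another way. Cd3e averaged -1.23 on these 2 arrays and -3.61 on the other 6, a difference of 2.38 on the log2 scale. For Cd4 the averages were 0.80 and -1.61, a difference of 2.42, with 1.49 on its other probe. For Lck they were -1.99 and -3.01, a difference of 1.02. In these genes (3 of 9) both arrays stood over all the others, as did 20.2% of all probes.

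Cd8b1 went the opposite way, with an average of -3.33 on the arrays of scan days 3 and 4 and -2.48 on the other 6, a difference of -0.86. Both arrays lay below all others, as for 17.4% of all probes. After quantile normalization the differences were 2.21 for Cd3e, 2.38 for Cd4, 0.81 for Lck and -1.14 for Cd8b1. Cd3d, Cd8a, Satb1 and Dntt did not separate these arrays from the rest under either scaling, and Rag1 put both below the rest after quantile normalization alone (a difference of -0.69). Among genes of 1 complex, Cd3e thus separated these arrays and Cd3d did not, and Cd8b1 did and Cd8a did not. The difference between those genes was not tested. Cd3d was dim and not well above background on NPRA+/+ replicate 1, so it cannot show whether the CD3 genes part on these arrays. Over the same arrays the median deviation of the 10 cardiomyocyte genes from their own mean was 1.23 in NPRA-/- replicate 1 and 0.94 in NPRA+/+ replicate 1, and between -0.95 and -0.02 on the other 6. Its part in the result was not tested, and day, slide and sample cannot be told apart for these arrays.

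**Figure D3:**
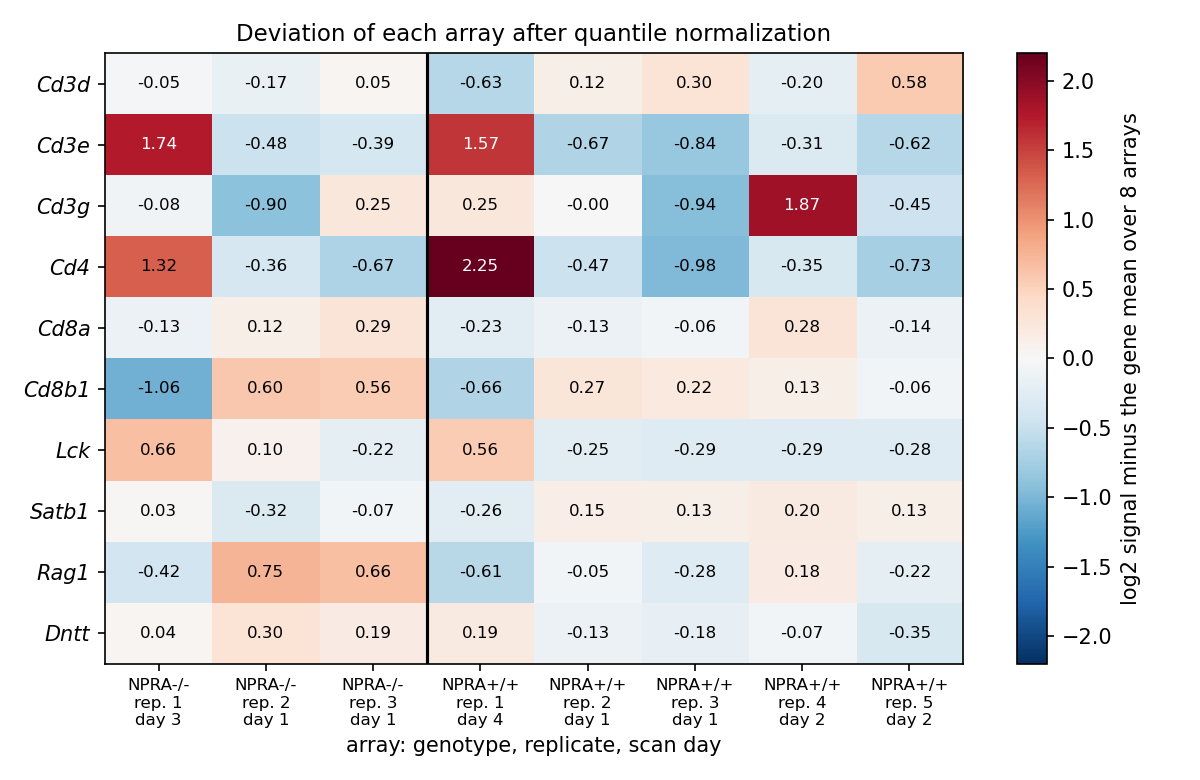
Log2 signal of each gene (y axis) after quantile normalization minus its mean over the 8 arrays (colour and printed value), by array (x axis, with genotype, replicate and scan day; NPRA-/- left of the line). Cd3e reaches 1.74 and 1.57 and Cd4 reaches 1.32 and 2.25 on replicate 1 of NPRA-/- and of NPRA+/+, where Cd8b1 is at -1.06 and -0.66.

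Fits without these arrays gave other calls. Within scan day 1, with 2 arrays of each genotype, limma called 5 of the 9 genes higher, against 15.6% of all probes: Rag1 (1.39 ± 0.09, adjusted p = 0.0238), Cd8a (0.70 ± 0.10, adjusted p = 0.0294), Cd8b1 (0.55 ± 0.09, adjusted p = 0.035), Dntt (0.58 ± 0.10, adjusted p = 0.0354) and Cd3e (0.65 ± 0.12, adjusted p = 0.0376). On that day the NPRA-/- arrays shared a slide and the NPRA+/+ arrays shared another. Genotype and slide therefore cannot be told apart in this fit, whatever its p-values. Without scan days 3 and 4, a choice made after the data were seen, 5 were called higher (Rag1, Cd8a, Cd8b1, Dntt and Lck), against 11.2% of all probes. Without NPRA+/+ replicate 1 alone, 3 were called higher (Rag1, Cd8a and Dntt), against 11% of all probes. With array weights, 5 were called higher (the same genes as without scan days 3 and 4), against 25.4% of all probes, and Satb1 was called lower (-0.30 ± 0.10, limma, adjusted p = 0.0499), against 2.26%. Repeated with quantile normalization, the fits on scan day 1, without scan days 3 and 4 and without NPRA+/+ replicate 1 each called 0 of the 9. Rag1, with most NPRA+/+ arrays at background, had fitted log2 fold changes between 0.42 and 1.45 over its 25 alternative fits, and no fold of a known size can be read from them. Dntt, Cd8a and Lck were positive in all 26, and Satb1 was negative in all 26, between -0.47 and -0.08.

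The partners of these genes in receptor signalling showed 0 of 19 tested genes past the threshold in either direction in limma. An unadjusted p under 0.05 was reached by 4 in the higher and 0 in the lower direction, a share near the 18.3% of all probes that were higher at that threshold. Their median log2 fold change was 0.34, and 0.04 after quantile normalization. Zap70, the kinase recruited to phosphorylated CD3, averaged -0.03 ± 0.68 in NPRA-/- hearts and -0.69 ± 0.42 in NPRA+/+ hearts (SD, n = 3 and 5; limma, adjusted p = 0.332). Cd28, the main costimulatory receptor, averaged -0.58 ± 0.03 in NPRA-/- hearts and -0.68 ± 0.17 in NPRA+/+ hearts, and Sh2d2a, an adapter of activated T cells, averaged -0.21 ± 0.07 in NPRA-/- hearts and -0.39 ± 0.39 in NPRA+/+ hearts.

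Genes of thymocyte development gave 0 of 19 past the threshold as well, with an unadjusted p under 0.05 for 4 higher (18.3% of all probes) and 1 lower, and a median log2 fold change of 0.33 (0.01 after quantile normalization). The gene with the smallest adjusted p among them was Notch1, the receptor that commits progenitors to the T lineage and that endothelial cells of the heart also carry. It averaged 4.54 ± 0.54 in NPRA-/- hearts and 5.64 ± 0.12 in NPRA+/+ hearts without overlap, a log2 fold change of -1.10 ± 0.23 (limma, adjusted p = 0.0749). Notch3 and Ets1 were level between the genotypes within their spread, at 2.03 ± 0.35 and 1.62 ± 0.11 in NPRA-/- hearts and 2.04 ± 0.45 and 1.67 ± 0.19 in NPRA+/+ hearts. Outside the rule for named genes, and looked at after values were seen, Rag2, the partner of Rag1, averaged -3.83 ± 0.49 in NPRA-/- hearts and -4.01 ± 0.37 in NPRA+/+ hearts (limma, adjusted p = 0.774). Ptcra, the pre-T cell receptor alpha chain of thymocytes, passed the background flag on 2 of 3 NPRA-/- arrays, against 0 of 5 NPRA+/+ arrays, and was not tested. Those arrays, NPRA-/- replicates 2 and 3, passed the flag for 92.6% and 92.1% of all probes. The NPRA+/+ arrays passed it for 79.5% to 88.8%, so those 2 NPRA-/- arrays also had more of all probes flagged. Ptcra read -5.75, -5.63 and -6.17 in NPRA-/- hearts, against -7.12, -6.99, -6.99, -6.66 and -6.58 in NPRA+/+ hearts. The genotypes did not overlap, as for 14.1% of all probes tested. How far its levels follow the detection of all probes was not tested.

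Genes of thymic epithelium, the stroma around thymocytes, were examined as the other cells that RNA from thymus would bring. Of its 12 genes, 6 were well above background on all arrays and 2 on none. Those on none were Psmb11, the thymoproteasome subunit of the cortex, and the keratin Krt8, both picked out after values were seen. Foxn1, the master regulator of thymic epithelium, also picked out so, passed the background flag on 3 of 3 NPRA-/- arrays, against 0 of 5 NPRA+/+ arrays (limma, adjusted p = 0.229). It entered the test through the NPRA-/- arrays alone. It read -4.68, -6.06 and -6.37 in NPRA-/- hearts, against -5.59, -7.17, -7.42, -8.26 and -7.45 in NPRA+/+ hearts, so the genotypes overlapped. With NPRA+/+ signals raised to the lowest one well above background, its means lay 0.63 apart on the log2 scale (1.54-fold). Without that raising, its fitted log2 fold change was 1.48 ± 0.60 (SE, limma fit), or 0.85 relative to the median change of the dimmest 7066 probes. With the overlap, no least genotype difference can be read from the bound. Of the 3 brightest probes, the chemokine gene Ccl25 averaged -1.09 ± 0.03 in NPRA-/- hearts and -1.22 ± 0.20 in NPRA+/+ hearts. Tbata averaged -1.94 ± 0.40 in NPRA-/- hearts and -2.26 ± 0.20 in NPRA+/+ hearts, and the keratin Krt5 -2.19 ± 0.62 in NPRA-/- hearts and -2.59 ± 0.51 in NPRA+/+ hearts. A dimmer Krt5 probe passed the flag on 3 of 3 NPRA-/- arrays, against 0 of 5 NPRA+/+ arrays. That probe averaged -5.88 in NPRA-/- hearts and -7.02 in NPRA+/+ hearts (limma, adjusted p = 0.0919). The log2 of the summed level of the list lay between 0.14 and 0.78 in NPRA-/- hearts and between -0.11 and 0.26 in NPRA+/+ hearts. In limma 0 of its 9 tested genes passed the threshold, with 2 higher at an unadjusted p under 0.05 (Foxn1 and Prss16), against 18.3% of all probes. Prss16 passed the flag on 2 of 3 NPRA-/- and 1 of 5 NPRA+/+ arrays. Its genotypes did not overlap, as for 14.1% of all probes. Its log2 fold change was 1.19 ± 0.42 (limma, adjusted p = 0.177), and 0.49 ± 0.41 after quantile normalization. The part of thymic epithelium in the levels of Rag1, Dntt and the co-receptor genes was not tested.

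**Figure D4:**
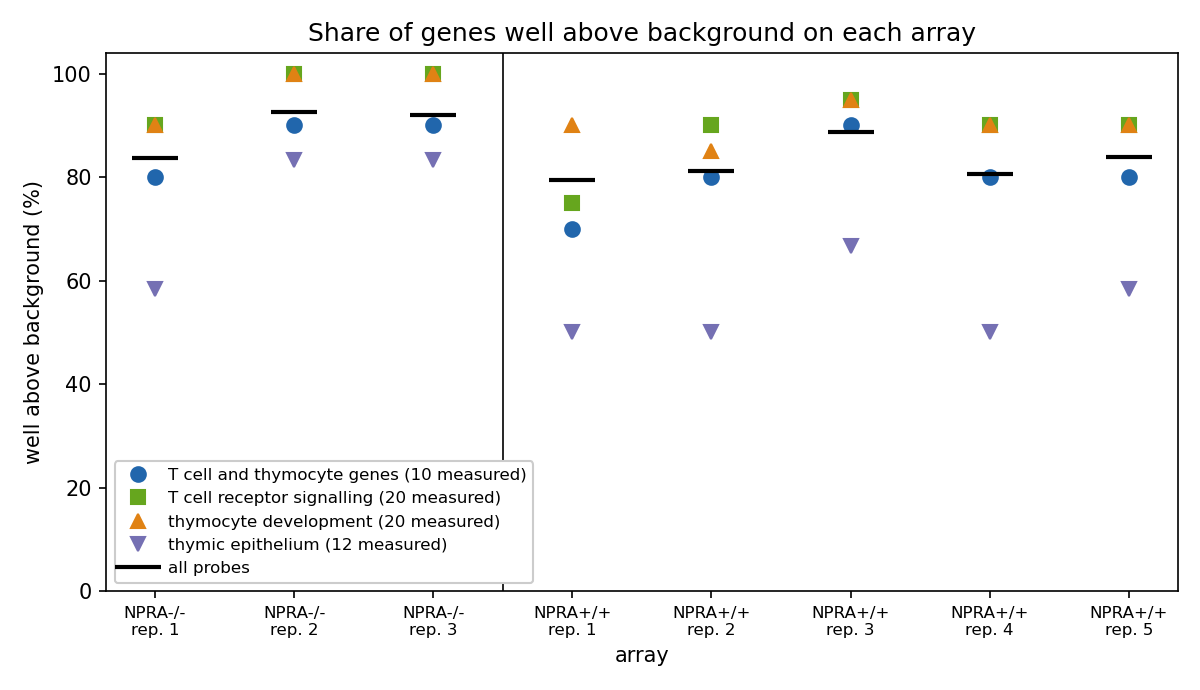
Share of genes well above background (y axis, percent) on each array (x axis, NPRA-/- left of the line) for the T cell and thymocyte genes, receptor signalling, thymocyte development and thymic epithelium lists, with a bar for all probes. Between 7 and 9 of the 10 T cell and thymocyte genes were well above background per array. Every list was lowest or tied for lowest on a NPRA+/+ array, as was the share over all probes (79.5% on NPRA+/+ replicate 1).

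Markers of circulating T cells held 1 call among 17 tested genes, against 0.32% of all probes, and quantile normalization and the block by repetition number, which call 0 probes, each end it. Cd40lg, the helper T cell ligand that activates B cells, averaged -4.58 ± 0.14 in NPRA-/- hearts and -5.48 ± 0.11 in NPRA+/+ hearts, a log2 fold change of 0.91 ± 0.13 (limma, adjusted p = 0.0498), and 0.38 after quantile normalization. The other 16 of the 17 tested genes did not pass, and their list had a median log2 fold change of 0.51 (0.24 after quantile normalization). Icos, a costimulatory receptor of activated T cells, averaged 0.39 ± 0.20 in NPRA-/- hearts and -0.62 ± 0.85 in NPRA+/+ hearts (limma, adjusted p = 0.265). Klf2 and S1pr1, a regulator of T cell exit and its target receptor, are also made by endothelium. Klf2 averaged 3.94 ± 0.61 in NPRA-/- hearts and 3.65 ± 0.40 in NPRA+/+ hearts, and S1pr1 0.66 ± 0.33 in NPRA-/- hearts and 0.78 ± 0.33 in NPRA+/+ hearts.

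Other lymphoid and blood cells were examined beside these. In limma the natural killer list (6 tested) and the B cell list (11 tested) had 0 calls, with 3 genes each higher at an unadjusted p under 0.05 (18.3% of all probes), and median log2 fold changes of 0.54 and 0.29 (0.17 and -0.03 after quantile normalization). The cytotoxic granule gene Nkg7 averaged 0.96 ± 0.37 in NPRA-/- hearts and 0.86 ± 0.12 in NPRA+/+ hearts (limma, adjusted p = 0.817). Prf1, perforin, averaged -2.84 ± 0.76 in NPRA-/- hearts and -3.43 ± 1.24 in NPRA+/+ hearts (limma, adjusted p = 0.692). Klrb1c, an NK receptor, averaged -3.20 ± 0.20 in NPRA-/- hearts and -3.87 ± 0.19 in NPRA+/+ hearts (limma, adjusted p = 0.0864). The B cell factor Ebf1 averaged -0.77 ± 0.19 in NPRA-/- hearts and -0.63 ± 0.11 in NPRA+/+ hearts (limma, adjusted p = 0.621). Cr2, a complement receptor, averaged -1.20 ± 0.07 in NPRA-/- hearts and -1.49 ± 0.23 in NPRA+/+ hearts (limma, adjusted p = 0.347). Fcer2a, a low-affinity receptor for IgE on B cells, averaged -1.64 ± 0.15 in NPRA-/- hearts and -2.12 ± 0.08 in NPRA+/+ hearts (limma, adjusted p = 0.0983). The log2 of the summed NK level lay between 0.93 and 1.38 in NPRA-/- hearts and between 0.93 and 1.23 in NPRA+/+ hearts, and that of B cells between 0.97 and 1.09 in NPRA-/- hearts and between 0.79 and 0.91 in NPRA+/+ hearts. Among neutrophil genes, Csf3r, the receptor for granulocyte colony-stimulating factor, averaged 5.34 ± 0.15 in NPRA-/- hearts and 5.22 ± 0.18 in NPRA+/+ hearts (limma, adjusted p = 0.689). Elane, neutrophil elastase, averaged -0.95 ± 0.53 in NPRA-/- hearts and -1.58 ± 1.26 in NPRA+/+ hearts (limma, adjusted p = 0.653). S100a9 averaged -0.48 ± 0.37 in NPRA-/- hearts and -1.52 ± 0.23 in NPRA+/+ hearts (limma, adjusted p = 0.0693), in a list with 0 of 11 called. In that list 4 genes were higher at an unadjusted p under 0.05 (18.3% of all probes). Its median log2 fold change was 0.47 (0.10 after quantile normalization). After quantile normalization 2 of its genes were higher at an unadjusted p under 0.05 in limma, against 1421 of 35329 probes. The macrophage (10 tested), erythroid (9), proliferation (11) and cardiomyocyte (10) lists had 0 calls too. At an unadjusted p under 0.05 in limma, 0, 1, 1 and 0 of their genes were higher, against 18.3% of all probes. In the proliferation list 1 gene was lower, against 482 of 35329 probes. All 10 cardiomyocyte genes had a positive fitted change, as did 75% of all probes, with a median of 0.63 (0.19 after quantile normalization). In the thyroid list Tg, thyroglobulin, was lower, at -0.89 ± 0.14 in NPRA-/- hearts and 1.23 ± 0.57 in NPRA+/+ hearts, a log2 fold change of -2.11 ± 0.31 (limma, adjusted p = 0.05, just under the threshold, and lost with Cd40lg under quantile normalization). The list as a whole did not go with Tg: 7 of its 8 tested genes had a positive fitted change, as did 75% of all probes. Its median log2 fold change was 0.67 (0.35 after quantile normalization), and 3 genes were higher at an unadjusted p under 0.05 in limma (18.3% of all probes).

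Array patterns most like those of Satb1 and Dntt were looked up over 15619 genes well above background on all arrays, by Pearson correlation over the 8 arrays after quantile normalization. For Satb1 they were Slc1a5, a glutamine transporter (r = 0.983), Cox6b1, a subunit of cytochrome c oxidase (r = 0.961), and Glmp, a lysosomal membrane protein (r = 0.960). For Dntt they were Tnfaip1 (r = 0.989), Hinfp, a histone gene transcription factor (r = 0.987), and Ocstamp, a protein of osteoclast fusion (r = 0.984). With 8 arrays and so many candidates, coefficients of this size describe these arrays alone, and the arrays share scan days and slides. The other 9 genes were left out of the lookup by rule, so it does not show whether they follow Satb1 or Dntt.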

How the data were processed

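The data were 8 one-colour arrays. The authors' scanner files hold linear intensity for every spot. Per the submitters' processing notes they come from Agilent Feature Extraction 11.0.1.1, and per the file headers the signal is background-subtracted within an array. Their flags, other columns deposited by the authors, mark spots well above background or outlying. The deposited series table holds log2 values, with no normalization given in the sources used here. It ranked probes as the scanner values did (rank correlation of at least 0.999), each column had a median of 7.04, and 56 of its 39485 entries were not matched.

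Control spots were left out, outlier spots were set to missing and log2 values were averaged per probe after subtracting each array's 75th percentile over all non-control spots. A probe counted as well above background where the flag was set for a share of 0.5 or more of its spots. Tests covered the 35329 probes that met this on 3 or more arrays, and 4100 were left out. No spot was saturated (0). Names came through RefSeq transcripts (GRCm38.p6 table), which named 27234 probes and left 12195 without a name. The array design names another build, so probes have no coordinates here. The brightest probe stood for a gene. Promoters matched 8 of the 10 genes.

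NPRA-/- was set against NPRA+/+ in limma 3.58.1 under R 4.3.3 (lmFit, eBayes, two-sided, Benjamini-Hochberg over all tested probes, threshold 0.05), genotype being the only term. Every adjusted p comes from limma. A bound for a probe below background on all arrays of a genotype sets the bright mean against the lowest signal well above background per array, or the dim probe's own if higher. The procedure was tested on simulated data of the same shape, where it called 48% of log2 changes of 1 and 66% of changes of 2. It called 90% of changes of 3 and 92% of changes of 4. A gene that was not called can therefore still differ.

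The genes and the 12 context lists (152 of 156 genes measured) were chosen with earlier results of these data known. Named genes were all members, Npr1, the 3 brightest of each list and any past the threshold, and the 3 nearest patterns; for each list a few are given. The labels call the samples biological repetitions but tie none to an animal, so p-values measure only the spread between these samples. Deviations of equally numbered arrays correlated by 0.63, 0.28 and 0.36 with the repetition numbers, and unequally numbered arrays reached 0.33. Scan day partly follows these numbers, and the arrays correlated by 0.63 are those that the first principal component set apart. The correlations therefore cannot show whether the numbers pair the samples. The main fit left these numbers out, and they served as a block among the alternatives only. The source names number the NPRA+/+ arrays differently. There were 26 alternatives (other scalings, filters, blocks, weights, thresholds and left-out arrays), some added after the data were seen. The number of arrays limits the precision.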

Additional observations from a re-analysis of the deposited data

Results flagged for a closer look

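NPRA+/+ replicate 1, the array of scan day 4, lay far from the other 4 NPRA+/+ arrays in Cd3e, Cd4, Lck and Satb1, by Dixon's ratio of the gap to the range (critical value 0.710 for 5 arrays). Cd3e read -1.31 on it, with the next array at -3.49 (ratio 0.809). Cd4 read 1.25, with the next at -1.38 (ratio 0.789). Lck read -2.07, with the next at -3.09 (ratio 0.844). Satb1 read 0.082, with the next at 0.41 (ratio 0.775), the one case in which the array was the low one. Chance alone marks some groups in this way, about 5% of them, and the 4 genes share the array, so they are not separate events. The cause was not tested.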

How the results depend on the processing

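With 3 and 5 arrays, and scan days and slides that mostly hold 1 genotype, the calls over all probes (113 higher and 10 lower) moved with almost every choice, and the causes were not tested. They were 0 and 0 with quantile normalization, alone and combined with scan day 1, without NPRA+/+ replicate 1 or without scan days 3 and 4. They were also 0 and 0 with median scaling, normexp, the deposited table, a variance trend with robust fitting, the 75th percentile over probes, scan day as a block and slide as a random block. The replicate block by repetition number gave 0 and 0, and the replicate block by source name number 1 and 21. The filter on all 8 arrays left 3 and 0, no filter gave 183 higher, a threshold of 0.1 gave 1531 and 99, scan day 1 alone 5494 and 485, leaving out scan days 3 and 4 gave 3954 and 180, and array weights 8963 and 798. Leaving out 1 array gave between 0 and 3901 higher and between 0 and 187 lower; the upper ends belong to the fit without NPRA+/+ replicate 1.

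Of the 9 genes, 0 were called at first; 5 were higher within scan day 1, 5 without scan days 3 and 4, 5 with array weights (1 lower there) and 1 at a threshold of 0.1. Leaving out 1 array gave between 0 and 3 higher, with the 3 without NPRA+/+ replicate 1. Neither replicate block called any of them (0). The sign turned in Cd3d, Cd4 and Cd8b1 alone. The log2 fold change of Cd3d was -0.091 with quantile normalization, -0.082 in the deposited table, -0.27 with quantile normalization on scan day 1, and -0.26 with it without NPRA+/+ replicate 1 and without scan days 3 and 4. That of Cd4 was -0.053 with the replicate block by repetition number, -0.0076 with median scaling and, leaving out 1 array, between -0.31 (without NPRA-/- replicate 1) and 0.87 (without NPRA+/+ replicate 1). That of Cd8b1 was -0.10 with quantile normalization without NPRA+/+ replicate 1. The median over the 9 genes was positive in all alternatives, from 0.15 to 0.60. Cd3g, and the second Rag1 probe, lie too close to background for any comparison.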
